A study of Mus musculus with 24 samples.

Results

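Enzymes that build and trim the outer parts of glycans were followed in both brain regions and at both ages of 16GsoT/T and wild type (WT) mice. The count tables held 81 such genes among 25793 gene symbols. They were taken by symbol and not by expression: every gene whose name begins with *St3gal*, *St6gal*, *St6galnac*, *St8sia*, *Fut*, *B3galt*, *B3galnt*, *B3gnt*, *B4galt*, *B4galnt*, *Gcnt*, *Mgat*, *Man1* or *Man2*, together with *Ogt* and *A130022J15Rik*, the older symbol of *Eogt*. The *Galnt* family, which includes a gene at the breakpoint, was left out. By class there were 25 GlcNAc transferases, 20 sialyltransferases, 13 galactosyltransferases, 9 mannosidases, 8 fucosyltransferases and 6 GalNAc transferases. Classes were assigned from the symbol alone. *B3galtl* and *B3gnt1* thus stand among the galactosyltransferases and GlcNAc transferases, although their newer symbols, *B3glct* and *B4gat1*, name other activities.

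Cerebellum (CB) and hippocampus (HC) were taken at postnatal day 14 (P14) and P35 from male mice of both genotypes. This made 8 groups of 3 RNA sequencing libraries, 24 in all, each from a different mouse. 16GsoT/T mice are homozygous for a reciprocal translocation of chromosomes 5 and 8 and were bred from homozygous parents. The strain field of the labels gives C57BL/6 for every library, whereas the titles of the WT libraries of P14 HC, P35 HC and P35 CB name B6C3, and the methods of the study a background of C57BL/6 mixed with C3H. In bulk tissue, fewer cells of a type and less RNA per cell cannot be told apart. *Galnt17*, listed as *Wbscr17*, lies beside the breakpoint, and its mean was lower in 16GsoT/T in all 4 comparisons, for example 19.8 ± 2.06 against 41.02 ± 1.95 CPM (counts scaled to library size, SD, n = 3) in P14 CB.

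The sugars at the outer ends of glycans are added one at a time in the Golgi. Mannosidases trim the high-mannose core of N-glycans, GlcNAc transferases of the *Mgat* family start the branches, galactosyl- and GlcNAc transferases extend them, and sialic acid or fucose caps them. Related enzymes act on glycolipids, and the brain is rich in gangliosides, which are sialylated glycolipids, and in polysialic acid on the adhesion molecule NCAM. *Ogt* stands apart, since it adds single GlcNAc units to proteins of the nucleus and cytoplasm, and *Eogt* does so on EGF domains of secreted and membrane proteins.

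Reads on genes per library ranged from 2563968 to 4127478 in P35 HC, from 5140843 to 7974640 in P35 CB, from 10572358 to 13245150 in P14 HC and from 22893603 to 40564789 in P14 CB. Regions and ages were sequenced in different runs, so run cannot be told apart from region or age. Cerebellar markers summed to 2310 CPM or more in every CB library, and hippocampal markers to 339 CPM or more in every HC library. Some libraries stood apart. The WT P14 HC library N4 held 152 CPM of striatal markers, against 24.6 to 34.8 CPM in the other P14 HC libraries. The 16GsoT/T P35 HC library B10 held 106 CPM of cerebellar markers, against 10.7 to 20.1 CPM in the other P35 HC libraries. Choroid plexus markers ranged from 11.6 to 2073 CPM over the 24 libraries.

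Most members were expressed in both regions. Of the 81 genes, 63 had at least 1 CPM in every library, 8 stayed under 1 CPM on average in every group, and 5 had fewer than 10 counts in every library. None had 0 counts throughout. Levels of different genes were compared per kilobase of annotated exon, as the mean of the 8 group means. The most abundant sialyltransferase was *St3gal5*, which makes the first ganglioside from lactosylceramide, at 50.8 CPM per kb, and the least abundant was *St6galnac1* at 0.00124 CPM per kb, from 1 read in all libraries. Among GlcNAc transferases the levels ran from 46.00 CPM per kb for *Mgat3*, which adds the bisecting GlcNAc of N-glycans, to 0.00117 for *Gcnt3*. *B4galt6*, a lactosylceramide synthase, led the galactosyltransferases at 35.2 CPM per kb, and *B4galt1* was lowest at 1.84. The GalNAc transferases ranged from 34.8 CPM per kb for *B4galnt1*, which adds GalNAc to gangliosides, to 0.169 for *B4galnt3*. *Fut8*, the enzyme of core fucose on N-glycans, stood at 30.4 CPM per kb and *Fut4* at 0.0583. Among the mannosidases, *Man2a2* stood at 17.2 and *Man2a1* at 3.36 CPM per kb. *Ogt* had 37.5 and *A130022J15Rik* 4.24 CPM per kb. *Fut9* and *B3gnt9* have no single annotated position and so no level per kilobase.

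Summed over its members, 1 class did not overlap between genotypes in P14 CB, the GlcNAc transferases with 1081 to 1093 CPM in WT and 1095 to 1156 CPM in 16GsoT/T. The sialyltransferases of P14 CB summed to 917 to 958 CPM in WT and 932 to 963 CPM in 16GsoT/T. In P35 CB they summed to 1028 to 1074 CPM in WT and 1159 to 1232 CPM in 16GsoT/T, without overlap. The GlcNAc transferases summed to 906 to 989.5 CPM in 16GsoT/T P35 CB and 1052 to 1065 CPM in WT, and the fucosyltransferases to 357 to 381 against 451 to 484 CPM. Sums of the GalNAc transferases (154 to 165 against 195 to 209 CPM) and the mannosidases (524 to 537 against 561 to 594 CPM) were also below WT in every 16GsoT/T library of P35 CB, while those of the galactosyltransferases overlapped. In P14 HC the sialyltransferases summed to 865 to 918 CPM in WT and 947 to 972 CPM in 16GsoT/T, and the GlcNAc transferases to 978 to 1014 and 937 to 968 CPM, both without overlap. In P35 HC the same held for the sialyltransferases (977 to 1001 CPM in WT and 904 to 975 CPM in 16GsoT/T) and the GalNAc transferases (228 to 285 and 289 to 298 CPM). The fucosyltransferases differed most between regions at P14, with 642 to 715 CPM in WT P14 CB and 171 to 182 CPM in WT P14 HC. These sums are descriptions without a test. A sum follows its members with the most reads, such as *Ogt* for the GlcNAc transferases and *Fut9* for the fucosyltransferases. It can therefore move without most genes of its class, and values of single genes are given further on. Taken singly, 13.7% of all tested genes did not overlap between genotypes in P14 CB and 23.6% in P14 HC. At P35 the shares were 47.6% in CB and 12.7% in HC.

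**Figure D1:**
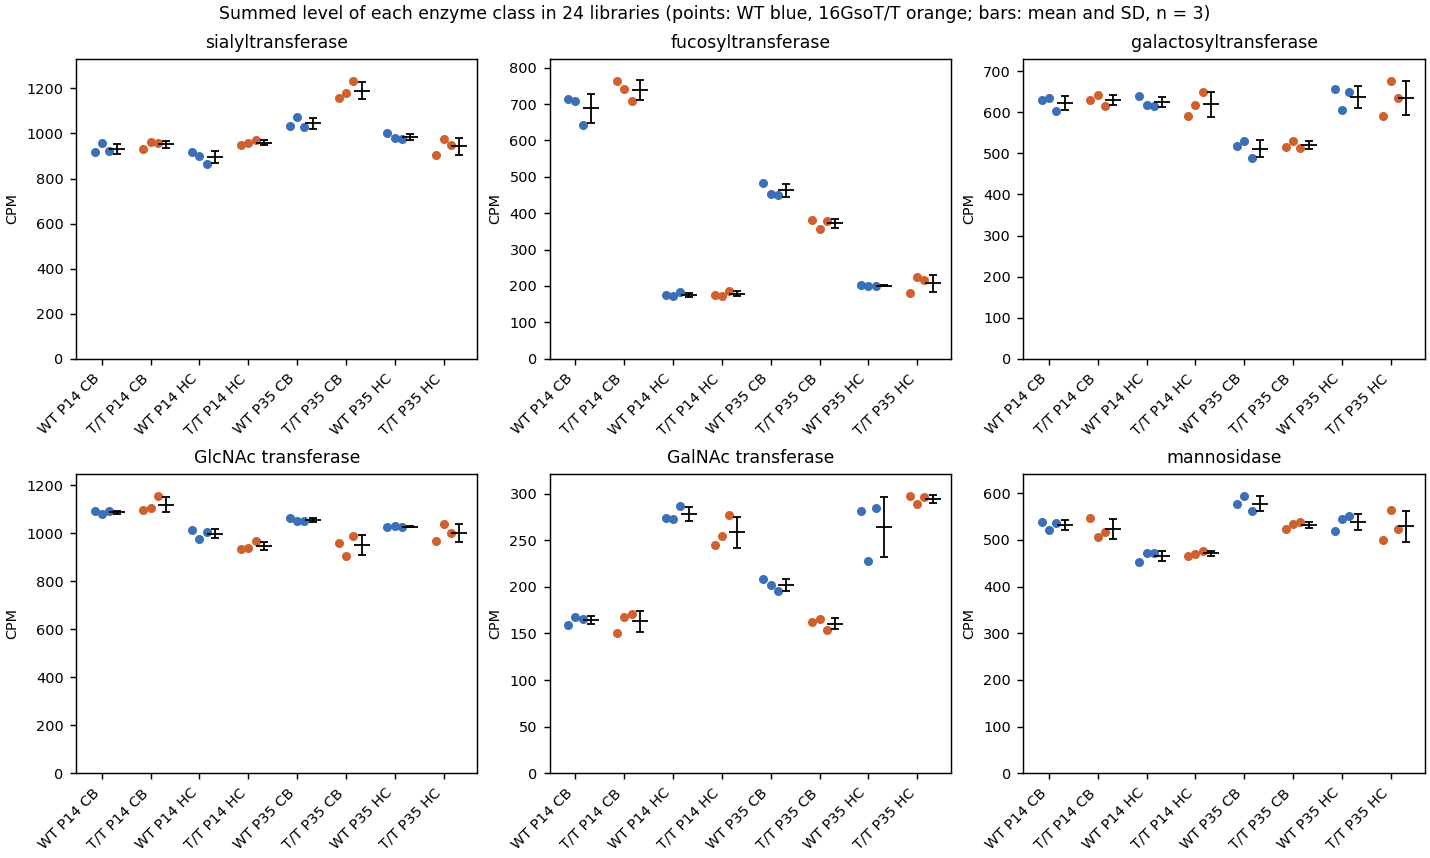
Summed CPM of each enzyme class (y axis) in the 8 groups (x axis), with one point per library for WT and 16GsoT/T and the mean with SD of 3 libraries. Fucosyltransferase sums were higher in every CB library (357 to 763 CPM) than in every HC library (171 to 224 CPM).

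The promoters of *Man1a*, *St8sia4* and *B3gnt5* are shown because, as described with their values further on, *Man1a* was the member called in P14 HC, *St8sia4* had the largest called decrease in P35 CB and *B3gnt5* differed between regions. Each is the RefSeq window in GRCm38.p6 from 250 bases before to 50 after the start, and capitals mark the GC box, GGGCGG or CCGCCC on the printed strand.
*Man1a* (chr10:54075688-54075987, minus strand): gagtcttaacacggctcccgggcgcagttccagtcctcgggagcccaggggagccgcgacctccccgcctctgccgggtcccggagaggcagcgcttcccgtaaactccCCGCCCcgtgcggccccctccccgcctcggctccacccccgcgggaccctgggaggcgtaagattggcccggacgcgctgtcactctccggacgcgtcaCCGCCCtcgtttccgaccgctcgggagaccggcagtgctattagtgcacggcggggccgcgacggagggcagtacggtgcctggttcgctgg
*St8sia4* (chr1:95667545-95667844, minus strand): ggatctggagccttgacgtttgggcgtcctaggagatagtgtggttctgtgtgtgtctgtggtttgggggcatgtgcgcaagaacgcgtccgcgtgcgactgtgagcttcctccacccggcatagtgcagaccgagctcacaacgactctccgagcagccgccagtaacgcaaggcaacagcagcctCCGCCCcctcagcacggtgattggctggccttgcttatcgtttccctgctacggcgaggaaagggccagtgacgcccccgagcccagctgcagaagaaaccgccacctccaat
*B3gnt5* (chr16:19759984-19760283, plus strand): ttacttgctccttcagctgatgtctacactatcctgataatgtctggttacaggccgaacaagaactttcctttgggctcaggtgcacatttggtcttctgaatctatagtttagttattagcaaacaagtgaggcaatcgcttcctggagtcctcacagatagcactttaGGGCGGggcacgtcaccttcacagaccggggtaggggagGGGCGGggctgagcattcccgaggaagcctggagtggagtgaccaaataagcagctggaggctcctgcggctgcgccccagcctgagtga
The *Man1a* window held 38 CpG dinucleotides and 2 GC boxes, that of *St8sia4* 22 and 1, and that of *B3gnt5* 9 and 2. Windows were found for 60 members, 82 in all, and a GC box lay in 59.8% of them, against 35.7% of all 32851 windows. A CCAAT box on either strand lay in 37.8% and 37.4%, TATAAA in 2.4% and 13.6%, CACGTG in 6.1% and 7.2% and TGACGTCA in 1.2% and 1.8%. The median number of CpG was 18.5 in members' windows and 7 in all windows. These are matches of letters and not known binding sites. All windows were not matched to those of members by gene type or expression, and a gene could have several windows.

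The first comparison asked how CB and HC of WT mice differ. At P14, 56 of 71 tested members were called (adjusted p at most 0.05), 30 higher and 26 lower in CB. Over all genes 77.2% were called, 38.8% higher and 38.4% lower. At P35, 41 of 67 members were called, 15 higher and 26 lower, where 56% of all genes were called, 27.5% higher and 28.5% lower. Scaling by library totals moved the median of all genes at P35 by 0.14 on the log2 scale and gave 19 higher and 23 lower members. Over all genes library totals gave 34.9% higher and 22.5% lower. Of 8 fucosyltransferases 5 were tested at P14, and all 5 were called higher in CB. Among them *Fut2* had 4, 4 and 7 reads in WT P14 HC and passed the filter on low counts only through CB. At P35, 2 of 4 tested fucosyltransferases were called, both higher in CB. In WT at P14 the share of reads on genes was 65.8% to 66.0% in CB and 41.0% to 41.4% in HC, and its part in the differences was not tested.

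Some members were found mainly in one region. *St6galnac5*, a brain sialyltransferase of gangliosides, had 4.16, 3.95 and 2.69 CPM in WT P14 CB and 108, 119.6 and 87.2 CPM in WT P14 HC. At P35 it had 1.90, 1.48 and 2.44 CPM in CB and 115, 137 and 135 CPM in HC. The regions were far apart at both ages, with log2 fold changes of CB against HC of -4.85 (standard error 0.162, adjusted p = 2.37e-09) at P14 and -6.14 (standard error 0.233, adjusted p = 7.53e-12) at P35. *B3gnt5*, which starts the lacto-series of glycolipids, had the opposite pattern, with 60.9, 62.7 and 61.7 CPM in WT P14 CB and 2.27, 3.03 and 2.16 CPM in HC. Its log2 fold change was 4.61 (standard error 0.138, adjusted p = 3.29e-10). At P35 it had 279, 284 and 216 reads in CB and 3, 3 and 2 reads in HC, a ratio relative to reads on genes of 57.9 (exact binomial 95% interval 29.2 to 134, counting error only). *Fut9*, which makes the Lewis X epitope, had 515, 493 and 441 CPM in WT P14 CB and 61.1, 66.3 and 74.1 CPM in HC. At P35 it had 317 ± 15.8 CPM in CB and 88.97 ± 14.2 CPM in HC (SD, n = 3), and it was higher in CB at both ages, by 2.83 (standard error 0.0903, adjusted p = 2.47e-09) and 1.77 (standard error 0.100, adjusted p = 8.60e-09).

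Genes of lower level also differed at P14. On the CB side these were *Gcnt1*, which branches O-glycans (2.27, 0.162, 3.25e-07), and *Fut2* (1.77, 0.432, 0.00200), where values in brackets are the log2 fold change, its standard error and the adjusted p. On the HC side were *B3gnt4* (-3.35, 0.370, 6.52e-06), *St3gal1* (-2.41, 0.170, 4.89e-07) and *Gcnt4* (-2.81, 0.462, 2.20e-04). The WT P14 HC library N6 held 7.998 CPM of *Gcnt4*, above the 3.13 and 2.49 CPM of N4 and N5, and the call held without it. At P35 the CB side held *St8sia5*, a sialyltransferase of complex gangliosides (1.70, 0.0874, 2.77e-09), and *St6galnac4* (1.73, 0.107, 1.45e-08). The HC side held *Gcnt2*, which makes the branched I antigen (-2.27, 0.171, 1.05e-07), *St6gal2* (-2.20, 0.422, 4.07e-04) and *St8sia6* (-2.62, 0.633, 0.00161), the last with 1, 2 and 7 reads in CB. Like *Fut2*, *B3gnt4* at P14 and *St8sia6* at P35 passed the filter on low counts only through the region where they were higher. *Ogt* was higher in CB at P14, with 383 ± 18.8 against 257 ± 11.6 CPM (0.56, 0.0697, 3.52e-05). At P35 it had 332 ± 8.37 and 317 ± 9.74 CPM (0.0089, 0.0733, 0.929). *A130022J15Rik* was called at neither age, with -0.29 at P14 (adjusted p = 0.0875) and -0.29 at P35 (adjusted p = 0.179).

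**Figure D2:**
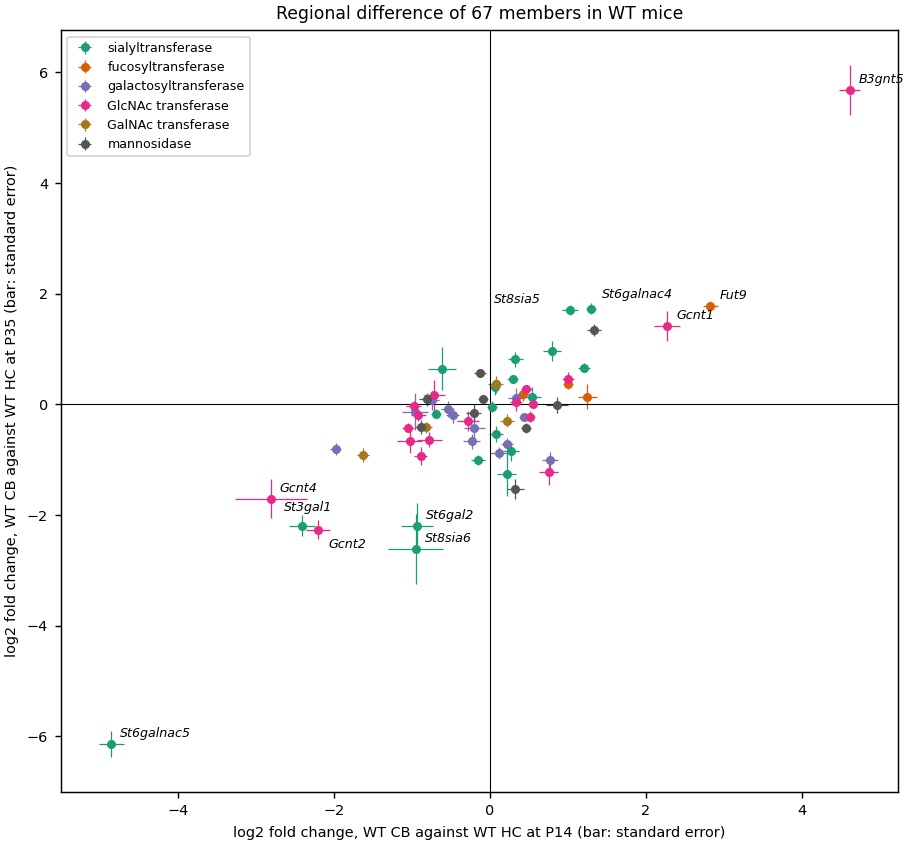
Log2 fold change of CB against HC in WT mice at P14 (x axis) and P35 (y axis) for the 67 members tested at both ages, coloured by class, with bars for the standard error. *B3gnt5* (4.61 and 5.69) and *St6galnac5* (-4.85 and -6.14) lie farthest from the origin. At P35 *B3gnt5* had 3, 3 and 2 reads in HC and passed the filter on low counts only through CB.

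The second comparison followed WT mice from P14 to P35. In CB, 55 of 71 members were called, 30 higher and 25 lower at P35, where 63% of all genes were called, 32.2% higher and 30.9% lower. In HC it was 18 of 69, 11 higher and 7 lower, where 24.8% of all genes were called, 12.6% higher and 12.2% lower. The share of reads on genes in WT CB was 65.8% to 66.0% at P14 and 37.6% to 37.7% at P35, and its part was not tested. *St8sia2*, one of the enzymes that make polysialic acid and known for its high level in the young brain, fell in both regions. In WT CB it had 9.70, 10.1 and 11.7 CPM at P14 and 1.11, 1.60 and 3.19 CPM at P35. In WT HC it had 9.67, 8.73 and 8.36 CPM at P14 and 5.23, 3.46 and 4.50 CPM at P35. The ages did not overlap in either region, with log2 fold changes of -2.46 (standard error 0.281, adjusted p = 6.37e-07) in CB and -1.04 (standard error 0.222, adjusted p = 0.00774) in HC.

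In WT CB, *St6gal2* (-1.60, 0.373, 8.51e-04), *Mgat4c* (-1.59, 0.166, 5.27e-07) and *B3galt2*, a galactosyltransferase (-1.46, 0.0867, 1.67e-09), also fell. *Gcnt4* (1.53, 0.367, 0.00241), the Golgi mannosidase *Man2a2* (1.17, 0.0584, 3.20e-10), *B3gnt9* (0.87, 0.192, 0.00120) and *Man2c1*, a mannosidase of the cytosol (0.78, 0.0791, 7.68e-07), rose. *A130022J15Rik* (-0.39, 0.109, 0.00532) and *Ogt* (-0.19, 0.0623, 0.0156) fell in CB by smaller amounts. In WT HC, *B4galt2* (-0.89, 0.112, 8.34e-04) and *Mgat4b*, which starts a branch of N-glycans (-0.84, 0.105, 8.22e-04), fell, while *B3galt5* (1.05, 0.130, 8.07e-04) and *Man1a*, a Golgi mannosidase (0.84, 0.173, 0.00730), rose. *B3gnt5* fell (-1.79, 0.476, 0.0131), from 24, 34 and 24 reads to 3, 3 and 2, a ratio relative to reads on genes of 3.62 (exact binomial 95% interval 1.75 to 8.67, counting error only), a call lost without W483 and kept in the other 2 of 3 such fits that tested it. In this comparison *B3gnt5* passed the filter on low counts only through P14. *St8sia6* (1.45, 0.357, 0.0161), *Fut10* (0.76, 0.231, 0.0372) and *Ogt* (0.28, 0.0789, 0.0274) rose in HC, but each of these 3 calls was lost without N5, without W481 and without W483. Those of *Fut10* and *Ogt* were also lost without N4, and that of *Fut10* without N6 and with DESeq2 (adjusted p = 0.0600). In 16GsoT/T libraries in place of WT, *St8sia2*, *B4galt2*, *Man1a*, *St8sia6* and *Fut10* were not called in HC, nor were *Gcnt4* and *Man2c1* in CB. *A130022J15Rik* was not called in HC (-0.46, 0.205, 0.128).

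16GsoT/T was then compared with WT in each region and age. In P14 CB, 2 of 74 tested members were called, where 0.506% of all genes were called. *Fut10* fell and *Gcnt1* rose. The groups did not overlap in 11 members, where they did not in 13.7% of all genes.

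*Fut10*, of the fucosyltransferase family (chromosome 8, plus strand, 32297803 to 32372210 in NCBIM37), lies on a translocated chromosome, as do *St3gal2*, *B3gnt3* and *Man2b1*. The part of its position in the result was not tested. In P14 CB it had 10.9, 11.8 and 11.6 CPM in WT and 6.86, 6.79 and 6.35 CPM in 16GsoT/T. The groups did not overlap, and the log2 fold change was -0.78 (standard error 0.0971, adjusted p = 0.00777). Without the WT library 2 the value was -0.76 and the adjusted p 0.0572. *Fut10* was not called elsewhere, although every 16GsoT/T library was below every WT library. In P14 HC it had 4.64, 4.90 and 4.67 CPM in WT and 3.16, 2.31 and 1.71 CPM in 16GsoT/T (-0.99, adjusted p = 0.0941, and 0.0202 in a fit of all 12 libraries of P14). In P35 CB it had 9.997, 9.97 and 8.06 CPM in WT and 7.96, 7.95 and 6.26 CPM in 16GsoT/T (-0.36, adjusted p = 0.138). In P35 HC it had 6.53, 10.6 and 7.32 CPM in WT and 2.89, 5.97 and 2.81 CPM in 16GsoT/T (-1.13, adjusted p = 0.352). These P35 HC values come from 25, 40 and 26 reads in WT and 12, 15 and 10 reads in 16GsoT/T. The gene overlaps the pseudogene *Gm8051*.

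*Gcnt1* (chromosome 19, minus strand, 17400631 to 17431157 in NCBIM37) had 15.1, 13.7 and 13.6 CPM in WT P14 CB and 24.9, 18.8 and 26.2 CPM in 16GsoT/T P14 CB. All mutant libraries were above all WT libraries, and the log2 fold change was 0.72 (standard error 0.127, adjusted p = 0.0490). The call was lost with library totals (adjusted p = 0.0503) and without any library other than the 16GsoT/T library 5 (adjusted p from 0.0611 to 0.222). In P35 CB *Gcnt1* had 13.8, 9.60 and 15.4 CPM in WT and 13.7, 17.04 and 29.3 CPM in 16GsoT/T, which overlap (0.65, adjusted p = 0.0656). DESeq2 called it there (adjusted p = 0.0477), as did edgeR without C19 (0.86, adjusted p = 0.0103) and with no filter on low counts, and the value without C21 was 0.27 (adjusted p = 0.363). In HC it was not called, with 0.47 at P14 (adjusted p = 0.291) and -0.21 at P35 (adjusted p = 0.929). *Ogt* and *A130022J15Rik* had 0.034 and -0.054 in P14 CB (adjusted p = 0.948 and 0.909). All 8 oligodendrocyte markers had lower means in 16GsoT/T P14 CB, with sums of 6051 to 10392 against 9596 to 11019 CPM and none called, and their part in the results was not tested.

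In P14 HC, *Man1a* was the 1 member called of 71 tested, where 0.814% of all genes were called. This Golgi mannosidase (chromosome 10, minus strand, 53624594 to 53795602 in NCBIM37) had 33.9, 27.1 and 29.1 CPM in WT and 58.3, 43.5 and 47.8 CPM in 16GsoT/T. The groups did not overlap, and the log2 fold change was 0.73 (standard error 0.127, adjusted p = 0.0482). Leaving out any of the 6 libraries lost the call, with log2 fold changes from 0.59 to 0.82 and adjusted p from 0.0643 to 0.122. Without N4, the library with striatal markers, they were 0.82 and 0.0916. The groups did not overlap in 14 members, where they did not in 23.6% of all genes. WT and 16GsoT/T libraries of P14 HC did not share a sequencing lane, and lane cannot be told apart from genotype. All 8 oligodendrocyte markers had higher means in 16GsoT/T, none of them called, with sums of 5152, 3008 and 4465 CPM in the WT libraries N4, N5 and N6 and 8124, 5580 and 5025 CPM in A13, A14 and A18. All 5 choroid plexus markers also had higher means, with sums of 89.04 to 1773 against 106 to 895 CPM, as did all 5 microglia markers, with sums of 231 to 269.9 against 195 to 248 CPM, and none was called. The part of these markers in the result for *Man1a* was not tested. In the other comparisons *Man1a* overlapped between genotypes, with -0.31 in P14 CB, -0.23 in P35 CB and -0.014 in P35 HC (adjusted p = 0.468, 0.269 and 0.994). In P14 HC *Ogt* and *A130022J15Rik* had -0.15 and 0.025 (adjusted p = 0.336 and 0.954).

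**Figure D3:**
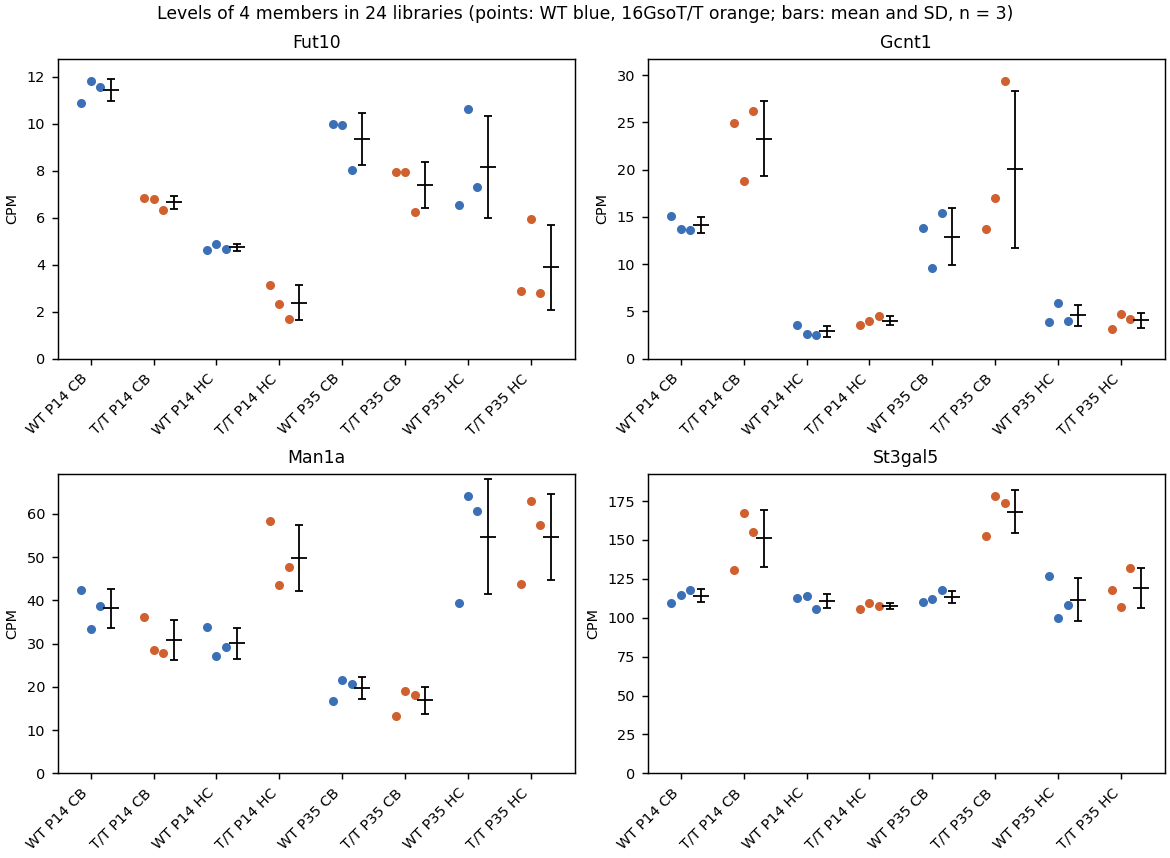
CPM (y axis) of *Fut10*, *Gcnt1*, *Man1a* and *St3gal5* in each library of the 8 groups (x axis) for WT and 16GsoT/T, with the mean and SD of 3 libraries. *Fut10* was below WT in every 16GsoT/T library of each region and age, and *Man1a* was above WT in P14 HC (43.5 to 58.3 against 27.1 to 33.9 CPM).

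In P35 CB, 26 of 66 tested members were called, 7 higher and 19 lower in 16GsoT/T. In this comparison 35.3% of all genes were called, 17.4% higher and 18% lower. The median log2 fold change was -0.08 over the members and -0.0040 over all genes. Scaling by library totals gave 2 higher and 22 lower members, where 13.2% of all genes were called higher and 21.4% lower. A fit of all 12 libraries of P35 gave 2 higher and 16 lower members, where 11.1% of all genes were higher and 13.2% lower. Requiring a change of 1.5-fold or more left 11 called members, all lower, where 2.45% of all genes were higher and 9.22% lower by that rule. The groups did not overlap in 34 members, 11 higher and 23 lower, where they did not in 47.6% of all genes.

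Of 17 sialyltransferases tested, 3 were higher and 4 lower. *St3gal5* (chromosome 6, plus strand, 72047607 to 72104564 in NCBIM37) had 110.3, 112 and 118 CPM in WT and 152, 178 and 174 CPM in 16GsoT/T, a log2 fold change of 0.56 (standard error 0.0729, adjusted p = 1.16e-04). In P14 CB it had 109.6, 115 and 118 CPM in WT and 131, 167 and 155 CPM in 16GsoT/T, also without overlap but not called (0.40, adjusted p = 0.108 by edgeR and 0.00301 by DESeq2). With edgeR it was called there in the fit of all 12 libraries of P14 and without the 16GsoT/T library 4 (0.49, adjusted p = 0.0134). In HC its genotypes overlapped at both ages, with -0.046 at P14 and 0.098 at P35 (adjusted p = 0.710 and 0.895). *St3gal2*, which sialylates gangliosides and O-glycans, lies on chromosome 8 and had 202, 201 and 183 CPM in WT and 264, 263 and 269.5 CPM in 16GsoT/T (0.43, 0.0600, 2.05e-04). *St8sia5* was higher by less (0.21, 0.0710, 0.0388).

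*St8sia4*, the other enzyme of polysialic acid (chromosome 1, minus strand, 97484261 to 97564171 in NCBIM37), had the largest decrease of the called members. It had 10.6, 16.00 and 13.3 CPM in WT and 4.84, 5.54 and 6.41 CPM in 16GsoT/T, without overlap, a log2 fold change of -1.27 (standard error 0.204, adjusted p = 4.58e-04). *St3gal6* (-0.64, 0.132, 0.00270) and *St3gal4* (-0.39, 0.0862, 0.00385), which cap galactose with sialic acid, also fell. *St6galnac2* fell (-1.04, 0.340, 0.0285), from 19, 48 and 19 reads in WT to 9, 18 and 14 reads in 16GsoT/T.

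Of 18 GlcNAc transferases tested, 2 were higher and 6 lower. *Ogt* (chromosome X, plus strand, 98835399 to 98879690 in NCBIM37) had 341, 332 and 324 CPM in WT and 209, 203 and 197 CPM in 16GsoT/T. The groups were far apart, and the log2 fold change was -0.72 (standard error 0.0565, adjusted p = 2.13e-06), the smallest adjusted p among the members. Leaving out single libraries gave -0.74 to -0.70. *A130022J15Rik* (chromosome 6, minus strand, 97060018 to 97099176 in NCBIM37) had 16.2, 15.6 and 19.7 CPM in WT and 7.44, 9.65 and 11.02 CPM in 16GsoT/T (-0.86, 0.170, 0.00186). *Gcnt2* had 5.71, 4.68 and 5.997 CPM in WT and 3.11, 2.56 and 3.58 CPM in 16GsoT/T (-0.82, 0.250, 0.0209). These 3 genes did not overlap between genotypes. *B3gnt2*, which extends poly-N-acetyllactosamine chains (-0.58, 0.129, 0.00434), and *B3gnt5* (-0.40, 0.123, 0.0229) fell as well, the latter with groups that overlapped. *Mgat5*, which adds a branch to N-glycans (0.31, 0.0970, 0.0265), and *Mgat3* (0.23, 0.0827, 0.0474) rose.

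The other classes held more lower than higher calls. Among 13 galactosyltransferases, *B3galt2* had 23.5, 24.9 and 21.9 CPM in WT and 12.3, 15.3 and 12.1 CPM in 16GsoT/T (-0.84, 0.133, 4.53e-04). *B4galt1* (-0.71, 0.203, 0.0167), *B3galt1* (-0.40, 0.0937, 0.00572) and *B4galt4* (-0.34, 0.120, 0.0439) fell too, and *B4galt6* rose (0.17, 0.0575, 0.0393). Of 5 fucosyltransferases *Fut9* was called, with 335, 305 and 310.1 CPM in WT and 225, 202 and 230.3 CPM in 16GsoT/T (-0.55, 0.0669, 7.69e-05). Of 4 GalNAc transferases, *B3galnt2*, which modifies dystroglycan (-0.70, 0.104, 3.08e-04), and *B4galnt4* (-0.59, 0.0877, 2.85e-04) fell. Among 9 mannosidases, *Man2c1* had 60.6, 58.97 and 57.7 CPM in WT and 33.9, 37.1 and 34.7 CPM in 16GsoT/T (-0.76, 0.0787, 1.96e-05). The Golgi mannosidase *Man1a2* fell (-0.24, 0.0638, 0.0103) and its relative *Man1c1* rose (0.29, 0.0875, 0.0228). *B3galt2* overlaps the coding gene *Cdc73*, *B3galnt2* overlaps *Tbce*, *St3gal6* overlaps *Dcbld2*, *St6galnac2* overlaps *1810032O08Rik*, *St8sia5* overlaps *Gm7276* and *Man2c1* a lincRNA gene, all on the other strand. *Mgat2* overlaps the coding gene *1110034A24Rik* on the other strand and *B3gnt2* overlaps *Commd1* on the same strand. Of the genes named for regions or ages, *St6galnac5* overlaps *Pigk*, *B3gnt4* overlaps *Diablo*, *St6galnac4* overlaps *Gm17343* and *B4galt2* overlaps *Slc6a9* and *Ccdc24*. Overlaps with noncoding genes are not listed in full, and the strand setting of the counting is not given in the sources used here.

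Several of these calls depended on the method or on 1 library. DESeq2 did not call *Gcnt2*, *Mgat5*, *B4galt1*, *B4galt4*, *B4galt6*, *St6galnac2* and *St8sia5*, with adjusted p from 0.0511 to 0.155. Of the higher members, only *St3gal2* and *St3gal5* were called with library totals. The fit of all 12 libraries did not call *B4galt4*, *B4galt6*, *Man1a2*, *Man1c1*, *Mgat2*, *Mgat3*, *Mgat5* and *St8sia5*, with adjusted p from 0.0572 to 0.178. Without M27, M28 or M29 there were 18, 20 and 18 called members, and without C19, C20 or C21 there were 24, 22 and 20. *St6galnac2* lost its call without C19, C21 or M28, *Gcnt2* without C20, M27 or M29, and *B4galt1* without C20, C21 or M29. *Man1a2* lost it without M27 and *Man1c1* without C19 or M29. *B3gnt5*, *B4galt6*, *St8sia5*, *Mgat3* and *Mgat5* each lost it without any of 4 libraries, and *B4galt4* without any of 5.

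**Figure D4:**
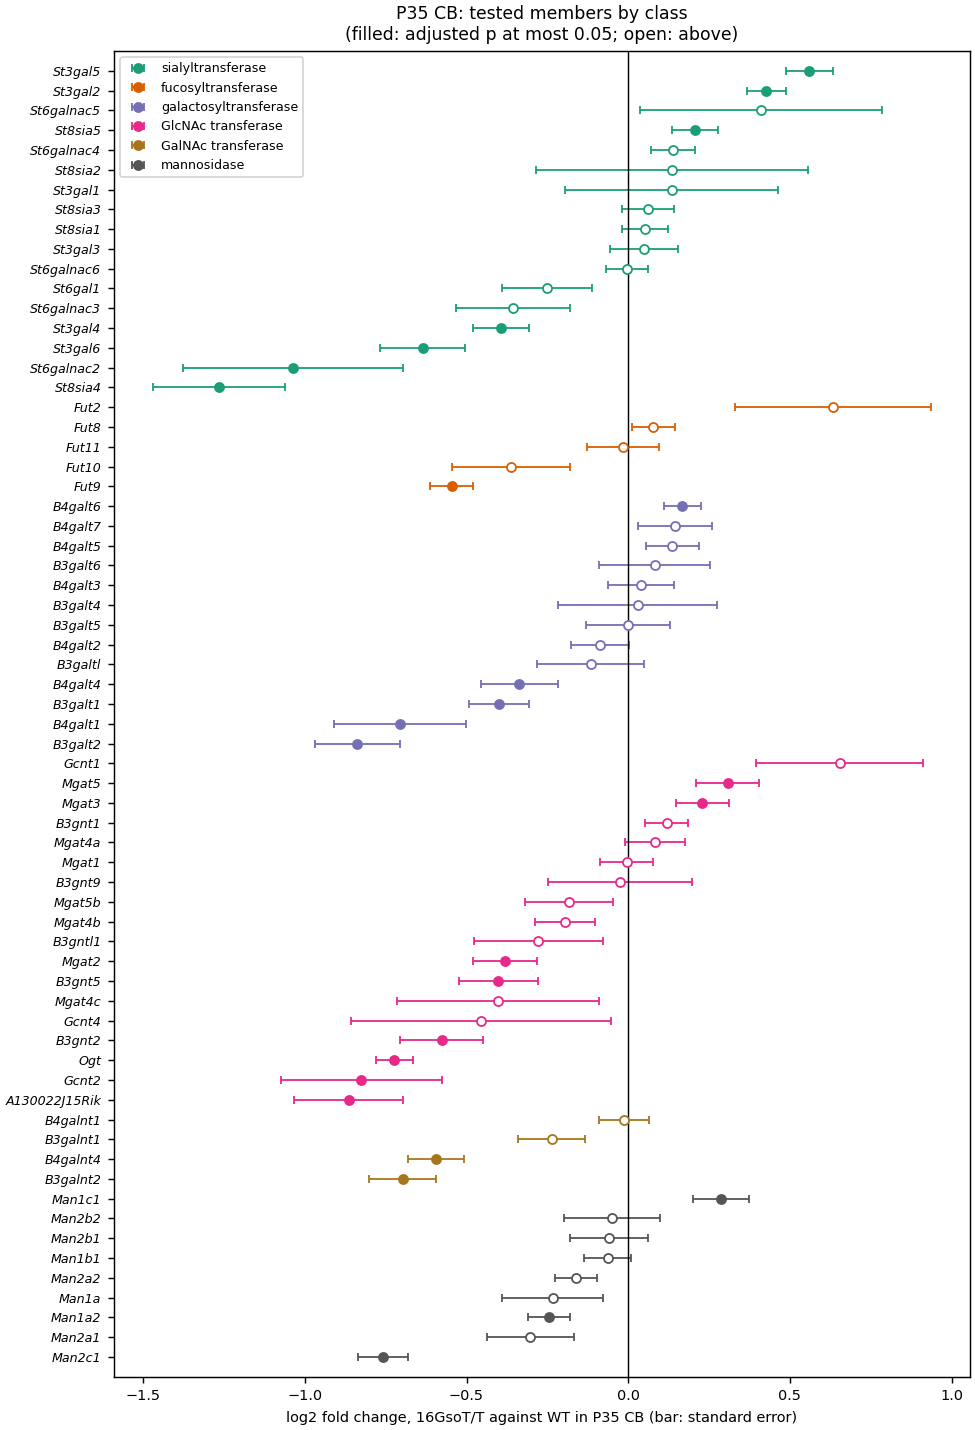
Log2 fold change of 16GsoT/T against WT in P35 CB (x axis, bars for the standard error) for the 66 tested members (y axis), coloured by class, filled where the adjusted p was at most 0.05. The called values run from -1.27 for *St8sia4* to 0.56 for *St3gal5*.

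Genes that supply sugars, start N-glycans or remove sugars were described by count. In P35 CB, 8 of 21 tested genes of sugar supply were called, 3 higher and 5 lower, with a median log2 fold change of -0.08, where 35.3% of all genes were called. *Gne*, which starts the synthesis of sialic acid, had 27.1 to 27.4 CPM in WT and 33.5 to 36.9 CPM in 16GsoT/T (0.34, 0.0930, 0.0132), and *Nans*, a later enzyme of that route, was higher too (0.44, 0.133, 0.0219). *Slc35a1*, which carries activated sialic acid into the Golgi, was lower (-0.34, 0.113, 0.0359). *Gfpt1*, the entry enzyme of the hexosamine pathway, was higher (0.21, 0.0724, 0.0377). *Gnpnat1*, a later enzyme of it (-0.62, 0.151, 0.00678), and the UDP-GlcNAc transporter *Slc35a3* (-0.50, 0.130, 0.0100) were lower. Of 12 genes of early N-glycan steps 4 were higher and 2 lower, with a median of 0.11, beside the same share of all genes. Subunits of the oligosaccharyltransferase stood on both sides, with *Rpn1* at 0.35 and *Tusc3* at -0.32. None of 15 sugar-removing genes was called by edgeR or DESeq2, and 4 had an unadjusted p under 0.05. Among them *Mgea5*, the enzyme that removes the GlcNAc added by *Ogt*, had 177 to 202 CPM in WT and 178 to 202 CPM in 16GsoT/T (0.0082, 0.0708, 0.940). No gene of these 3 lists was called by edgeR in P14 CB, P14 HC or P35 HC, where 2, 13 and 4 had an unadjusted p under 0.05 and DESeq2 called 0, 2 and 0.

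Markers of other cells also differed in P35 CB. All 5 endothelial markers were lower in 16GsoT/T, with sums of 75.4 to 83.6 against 159 to 166 CPM. Of 5 fibroblast markers 4 were lower, with sums of 77.02 to 97.4 against 126 to 133 CPM. Choroid plexus markers summed to 15.2, 1201 and 2073 CPM in the WT libraries M27, M28 and M29 and to 123 to 361 CPM in 16GsoT/T, and 2 of 5 were lower. Of 8 oligodendrocyte markers 2 were lower, with sums of 6484 to 9846 against 7979 to 8279.8 CPM, and of 6 cerebellar markers 2 were higher and 1 lower. Of 4 blood markers *Hba-a1* (1.62, 0.175, 2.88e-05) and *Hbb-b1* (0.68, 0.215, 0.0268) were higher and *Hba-a2*, a near-identical copy of *Hba-a1* (-4.28, 0.318, 1.98e-07), lower, and their sums of 173 to 282 CPM in 16GsoT/T and 117 to 167 CPM in WT did not overlap. Of 5 astrocyte markers *Aldh1l1* was higher (0.61, 0.0661, 2.94e-05) and *Aqp4* lower (-0.46, 0.114, 0.00803), with sums of 2397 to 2779.9 against 2418 to 2766 CPM. The share of reads on genes was 37.6% to 37.7% in WT and 42.3% to 42.4% in 16GsoT/T. Reads without a unique alignment made up 10.6% to 11.2% in WT and 7.9% to 8.6% in 16GsoT/T. The part of these in the members' differences was not tested.

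In P35 HC none of 66 tested members was called by edgeR or by DESeq2, and 8 had an unadjusted p under 0.05. Over all genes 0.135% were called by edgeR and 0.33% by DESeq2, and 8.84% had an unadjusted p under 0.05. The groups did not overlap in 10 members, where they did not in 12.7% of all genes. *Ogt* had 315, 308 and 327 CPM in WT and 279, 323 and 299.5 CPM in 16GsoT/T (-0.077, adjusted p = 0.900), and *A130022J15Rik* had 0.016 (adjusted p = 0.994). The 16GsoT/T libraries shared a library batch with the WT library N10 and not with W481 and W483. With batch as a covariate *Fut10* had -0.80, *Ogt* -0.049 and *Man1a* 0.48, which rest on N10 alone as WT and are given without a test. Of 5 choroid plexus markers 4 were higher in 16GsoT/T, with sums of 353 to 1758 against 80.5 to 93.02 CPM, and their part was not tested.

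Whether the effect of genotype differed between ages or regions was tested as an interaction over 12 libraries. In CB it differed between P14 and P35 in 17 of 74 members, where it did in 18.6% of all genes. The 17 include *Fut1*, which passed the filter on low counts only through the 16GsoT/T P35 CB libraries. At P35 the effect of genotype differed between CB and HC in 9 of 68 members, where it did in 9.61% of all genes. Both tests use the P35 CB libraries described above. *Ogt* overlapped between genotypes in P14 CB, at 364 to 402 CPM in WT and 378 to 408 CPM in 16GsoT/T. Its interaction was -0.76 (standard error 0.0888, adjusted p = 4.16e-05) with age and -0.65 (standard error 0.111, adjusted p = 0.00164) with region. *St8sia4* had 19.9 to 22.1 CPM in WT P14 CB and 19.9 to 25.2 CPM in 16GsoT/T, and its interaction was -1.41 (standard error 0.225, adjusted p = 5.23e-04) with age. With region it was -1.14 (standard error 0.296, adjusted p = 0.0213), a call lost without B12 or M28. *St3gal2* had positive interactions (0.40, 0.0829, 0.00346) with age and (0.52, 0.112, 0.00700) with region. *A130022J15Rik* had (-0.82, 0.179, 0.00521) with age, called without each library in turn, and (-0.89, 0.258, 0.0380) with region, called in 2 of 12 such fits.

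At P14 no member of 73 had an effect that differed between regions by edgeR, where 0% of all genes did. DESeq2 called 3 members and 0.698% of all genes it tested, and 10 members and 9.2% of all genes had an unadjusted p under 0.05. *Ogt* and *A130022J15Rik* had 0.19 and -0.082 there (adjusted p = 0.661 and 0.949). In HC none of 69 members had an effect that differed between ages by edgeR or DESeq2, where 0.00666% of all genes did by edgeR and 0.887% by DESeq2. An unadjusted p under 0.05 was found for 13 members and 11.4% of all genes. *Ogt* had 0.078 and *A130022J15Rik* -0.0068 (adjusted p = 0.848 and 0.997).

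**Figure D5:**
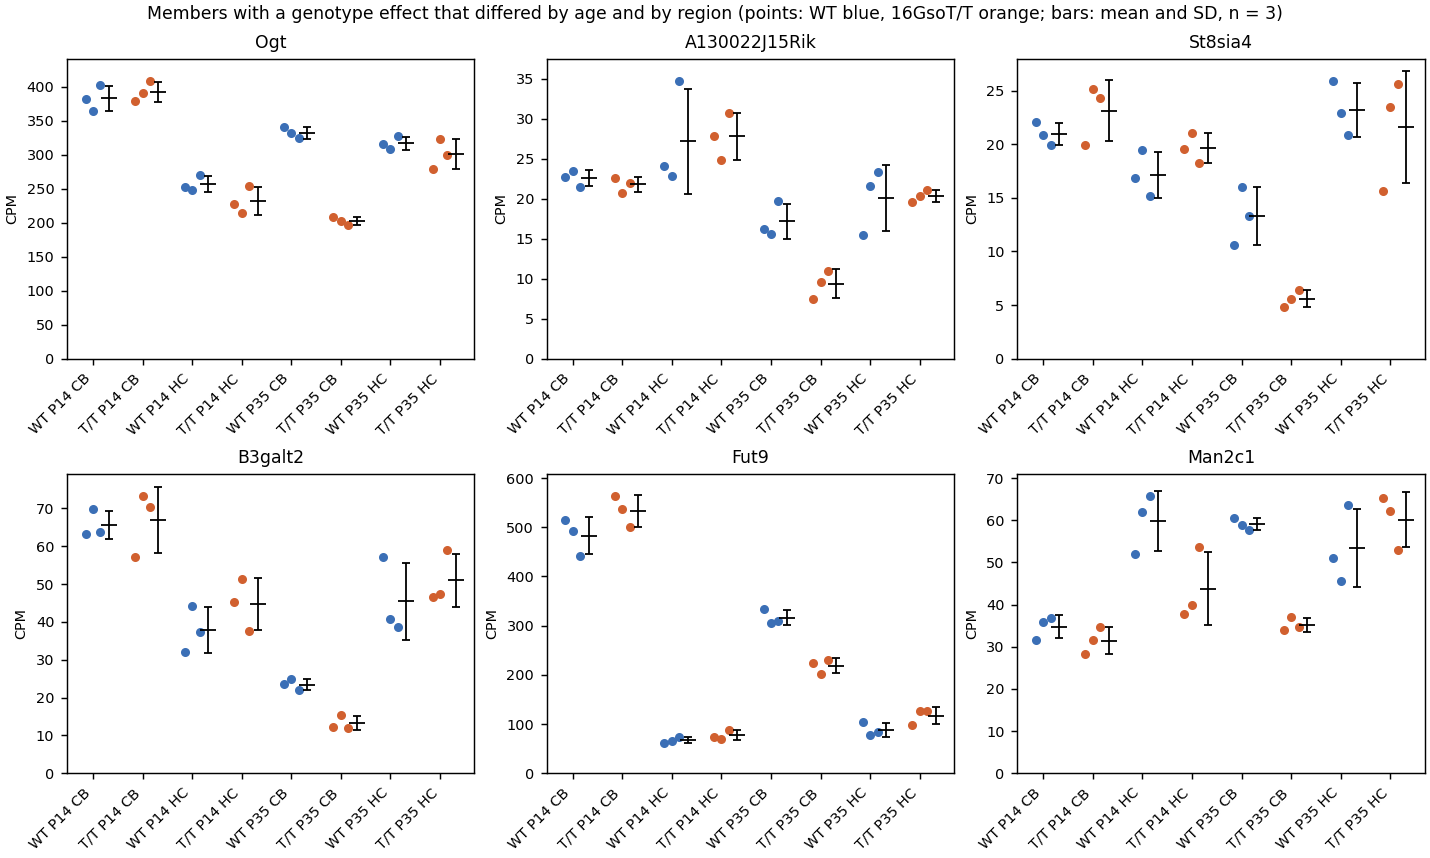
CPM (y axis) of *Ogt*, *A130022J15Rik*, *St8sia4*, *B3galt2*, *Fut9* and *Man2c1*, chosen after their interactions were seen, in each library of the 8 groups (x axis) for WT and 16GsoT/T, with the mean and SD of 3 libraries. In P35 CB the 16GsoT/T libraries lie below all WT libraries for each gene shown, as for *Ogt* with 197 to 209 against 324 to 341 CPM. *B4galnt4* and *St3gal2* also had both interactions and are not shown. Those of *St3gal2* were positive (0.40 with age and 0.52 with region).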

How the data were processed

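PolyA RNA of cerebellum and hippocampus was sequenced with a stranded kit, TruSeq Stranded mRNA per the labels and KAPA Stranded mRNA per the methods, and the authors deposited raw read counts per gene, 1 table per age, with no normalization. Per the labels the submitters' processing used CASAVA 1.8.2, TopHat2 2.0.8 on NCBIM37 and HTSeq 0.6.1, with edgeR 3.2.4. The strand setting of the counting is not given in the sources used here, so reads of overlapping genes could be assigned to either.

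Groups were taken from the labels, 3 libraries each. The filter on low counts asked for the CPM that equals 10 counts at the median library size, and a total of 15 counts. That CPM had to be reached in as many libraries as the smallest group held. A gene could thus pass with fewer than 10 counts, or through its higher group alone. Genes that passed were tested with edgeR 4.0.16 (R 4.3.3) by the quasi-likelihood F-test after TMM scaling, over the libraries of each comparison. The p-values were adjusted by Benjamini and Hochberg over all genes tested. A gene was called at an adjusted p of at most 0.05. An exact permutation test of 3 against 3 libraries cannot go below p = 0.1, so none was used. Printed CPM share 1 TMM scale over the 24 libraries. Exon lengths came from GENCODE vM1. The edgeR test of the 4 genotype comparisons was tried on simulated counts, with changes larger than any called among members in P35 CB. The other steps were not simulated. Alternatives were DESeq2 1.42.0, its size factors, library totals, other filters, a joint fit per age, a fold limit and single libraries left out. Depth limits precision most in P35 HC. Intervals of ratios cover counting error only, since reads are not independent molecules.

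Named genes were every called member in P14 CB, P14 HC, P35 HC and the interactions. In P35 CB they were up to 5 called per class and direction by size, in the region and age comparisons the 4 largest called per direction with a mean of at least 1 CPM. The most and least abundant per class, and *Ogt* and *A130022J15Rik* throughout, were added. Members, lists and tests were chosen with earlier results of these data known. Promoter windows were matched by symbol, 2 through the newer symbols *B3glct* and *B4gat1*.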

Additional observations from a re-analysis of the deposited data

Results flagged for a closer look

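Members whose genotype effect differed between ages or between regions by an interaction test (edgeR, adjusted p at most 0.05) are listed here with the difference between the log2 fold changes. None was weighed for a cause, and all involve the P35 CB libraries.

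Between CB and HC at P35, the effect in CB was lower for *St8sia4* (-1.14), *B3galt2* (-1.003), *Fut9* (-0.94), *Man2c1* (-0.93), *A130022J15Rik* (-0.89), *B4galnt4* (-0.88) and *Ogt* (-0.65). It was higher for *Mgat3* (0.42) and *St3gal2* (0.52). The calls of *A130022J15Rik* and *Mgat3* held in 2 of 12 fits that each left out 1 library, and that of *St8sia4* was lost without B12 or M28.

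Between P14 and P35 in CB, the effect at P35 was lower for *St8sia4* (-1.41), *B3galt2* (-0.87), *A130022J15Rik* (-0.82), *B4galt1* (-0.78), *Ogt* (-0.76), *B3galnt2* (-0.71) and *Fut9* (-0.69). It was also lower for *Man2c1* (-0.62), *St3gal6* (-0.55), *Mgat2* (-0.53), *B4galnt4* (-0.52), *B3gnt2* (-0.49) and *B3galt1* (-0.47). It was higher for *St3gal2* (0.40), *Mgat5* (0.44) and *Fut2* (1.29). *Fut1* had a fitted difference of 3.05, which is no bound, from 1, 1 and 0 reads in WT P35 CB and 5, 5 and 6 reads in 16GsoT/T. Relative to reads on genes that is a ratio of 7.73 (exact binomial 95% interval 1.82 to 69.3, counting error only). *Fut1* had at most 6 reads in any library. It passed the filter on low counts only through the 16GsoT/T P35 CB libraries, so its being tested depended on the group where it was high. The call of *Fut2* held in 2 of 12 fits without 1 library, that of *B3gnt2* in 3 and that of *Mgat5* in 6, and that of *Fut1* was lost without any 1 of the P35 CB libraries. That of *St3gal6* was lost without C19 or M28. DESeq2 did not call *Fut2* (adjusted p = 0.0550) or *B3gnt2* (adjusted p = 0.0545) and gave no adjusted p for *Fut1*.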

How the results depend on the processing

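Of 90 named results called, 59 were called under every alternative that tested them and 31 lost the call under 1 or more, and no called member changed direction. In P14 CB 2 members were called, 3 with DESeq2, 3 in the joint fit, 1 with library totals and 0 to 2 with single libraries left out. In P14 HC 1 was called, 2 with DESeq2, 3 in the joint fit and 0 without any 1 library. In P35 CB 26 were called, 11 with the fold limit and 18 to 24 with single libraries left out. In WT HC with age, 18 were called and 9 to 18 with libraries left out. The interaction with region at P14 gave 0, against 3 with DESeq2 and 0 to 2 with libraries left out. The cause of these changes was not tested. No paired analysis was possible because the groups share no replicate numbers or mice.

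Values that changed sign were all of results not called. In P35 HC with batch as a covariate, *Gcnt1* was 0.035, *Man1a* 0.48 and *St3gal5* -0.066, and *Man1a* was 0.021 with library totals. *Ogt* between regions at P35 was -0.60 in 16GsoT/T libraries. *A130022J15Rik* in the interaction with age in HC was 0.011 with library totals. With single libraries left out, *Ogt* ranged from -0.0044 to 0.069 in P14 CB and from -0.0056 to 0.042 between regions of WT at P35. *A130022J15Rik* ranged from -0.092 to 0.24 in P14 HC, from -0.15 to 0.15 in P35 HC, from -0.28 to 0.034 in the interaction with region at P14 and from -0.22 to 0.12 in that with age in HC. In P35 HC, *Gcnt1* ranged from -0.32 to 0.020 and *Man1a* from -0.21 to 0.14.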
